A study of Caenorhabditis elegans with 45 samples.

Results

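P granules are the RNA and protein condensates of the C. elegans germline, and 10 named genes that encode parts of them are described here: glh-1, glh-2, glh-4, pgl-1, pgl-3, deps-1, meg-1, meg-2, meg-3 and meg-4. They were chosen by name as known P granule genes, and all 10 were among the 18589 genes of the deposited normalized table. The granules sit at the nuclear pores of germ cells through most of the life cycle, detach in the oocyte and early embryo, and are then segregated into the germline blastomeres by the polarity proteins of the zygote. GLH-1, GLH-2 and GLH-4 are DEAD-box RNA helicases related to Vasa, PGL-1 and PGL-3 are self-associating scaffold proteins with RGG repeats, and DEPS-1 is needed for the proper assembly of PGL-1 into granules and for germline RNAi. MEG-1, MEG-2, MEG-3 and MEG-4 are intrinsically disordered proteins of the embryonic granules, of which MEG-3 and MEG-4 help to place the PGL condensates at the posterior of the zygote. In the adult hermaphrodite the germline and its oocytes are the known place of expression of these genes, so a whole worm gives the RNA of the germline diluted by that of the soma.

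RNA of whole day 1 adult hermaphrodites was measured in 45 libraries, from 5 strains under 3 treatments with 3 replicates in each of the 15 groups. The strains were N2, the laboratory reference, and the wild isolates JU1088, EG4348, CB4856 and QX1211. Larvae were fed HT115 Escherichia coli that carried the empty pL4440 vector (the control), the par-1 feeding vector or the pos-1 feeding vector, from the L1 stage at 20°C until egg laying began. A replicate was the pooled worms of 2 plates, and no strain carried a transgene or engineered allele. QX1211 alone had been kept at 18°C before the experiment, because its germline becomes mortal at higher temperature. In QX1211 strain and maintenance temperature therefore cannot be told apart. Before the experiment the plates of the wild strains, unlike those of N2, were made with agarose to prevent burrowing. Against N2, strain and earlier plate type therefore cannot be told apart. PAR-1 is a kinase that sets the anterior and posterior of the zygote, and POS-1 is a zinc finger RNA-binding protein of the embryo. Both are made in the germline. The RNAi was therefore aimed at regulators that act on the granules or beside them and not at the 10 genes themselves.

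Of the 10 genes, 4 lie on chromosome I and 4 on X (genome WBcel235). On chromosome I, glh-1 spans 6854478 to 6857536, glh-2 spans 6513928 to 6517507, glh-4 spans 3727027 to 3731179 and deps-1 spans 506473 to 509056, all on the plus strand. The gene pgl-1 lies on chromosome IV at 6974441 to 6977318 on the minus strand, and pgl-3 lies on chromosome V at 4755979 to 4758587 on the plus strand. The pair meg-1 (13927036 to 13929634) and meg-2 (13922643 to 13926129) lie next to each other on the minus strand of X. The gene meg-3 (1986469 to 1989607, minus strand) and the gene meg-4 (1682954 to 1686419, plus strand) lie near the other end of X. Only deps-1 overlapped another gene, by 109 bases on the opposite strand, and the reads were quantified with their strand.

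Some of the relatives shared reads. Whole reads in every library, within 0.01 of a read, were found for pgl-1, pgl-3, deps-1, meg-1 and meg-2, so their estimated counts hold no read split with another gene. The estimated counts of glh-1 and glh-2 were whole in 2 of 45 libraries each, whereas their sum was whole in 45. The counts of meg-3 and meg-4 were whole in 1 library each, and their sum was whole in 45. The values of glh-1 against glh-2, and of meg-3 against meg-4, are therefore uncertain as far as the split of shared reads goes, and each pair is also given summed below. Reads of glh-4 were shared with a pseudogene on X, T08D2.3, with which its sum was whole in 45 libraries.

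The depth of a library ranged from 4269033 to 17865356 reads. The targeted transcript pos-1 fell under pos-1 RNAi in N2 (from 5679 ± 124 to 951 ± 143 normalized counts, SD, n = 3), JU1088 (from 6306 ± 104 to 521 ± 109) and EG4348 (from 6515 ± 157 to 2755 ± 427). It did not pass the test in CB4856 (6416 ± 288 against 6181 ± 501) or QX1211 (5472 ± 143 against 5027 ± 106). The transcript par-1 did not pass the test under par-1 RNAi in any strain, with group means of 1048 to 1263 under par-1 RNAi and of 1059 to 1252 in the controls. A pair of JU1088 libraries stood apart. Replicate 2 of par-1 RNAi held the lowest of all 45 values of glh-1, glh-2, glh-4, pgl-1 and pgl-3, and replicate 2 of pos-1 RNAi that of meg-2 and meg-3. The latter is also among 3 libraries (with QX1211 control replicate 1 and CB4856 par-1 RNAi replicate 3) for which the labels give a single shared pair of fragment length values. Markers of the germline (10 of 10) and oocytes (9 of 9) were present in the table, and those of sperm (8 of 8) too, with spe-9 under 1 normalized count on average. Of the early embryo markers med-1 was absent and med-2 was under 1.

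All 10 genes were read in every library. TPM divides reads by an effective length, the transcript length adjusted for fragment length and for sequence and GC bias, to let genes be compared. In CB4856 it reached 4520 for glh-1 (transcript of 2769 bases) and at most 1760 for deps-1 a.1 (2037 bases). The order of genes therefore rests on that adjustment. On this scale the scaffold gene pgl-1 had the highest median over the 45 libraries (165 TPM, range 125 to 191). It was followed by deps-1 (135, range 50.1 to 179), pgl-3 (125, range 83.5 to 193), the helicase glh-1 (111, range 71.0 to 152) and meg-1 (94.7, range 66.9 to 111). The lower 5 were glh-2 (50.4), meg-3 (39.4), glh-4 (32.6), meg-4 (19.9) and meg-2 (15.6). Within families a single member led. The TPM of glh-1 was 1.42 to 2.84 times that of glh-2 over the 45 libraries, that of meg-3 was 1.54 to 2.25 times that of meg-4, and that of meg-1 was 5.06 to 7.34 times that of its neighbour meg-2. The PGL scaffolds were the family whose order changed. The ratio of pgl-1 to pgl-3 lay between 1.18 and 1.65 in the 36 libraries of N2, JU1088, EG4348 and CB4856, and between 0.87 and 1.03 in the 9 libraries of QX1211.

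**Figure D1:**
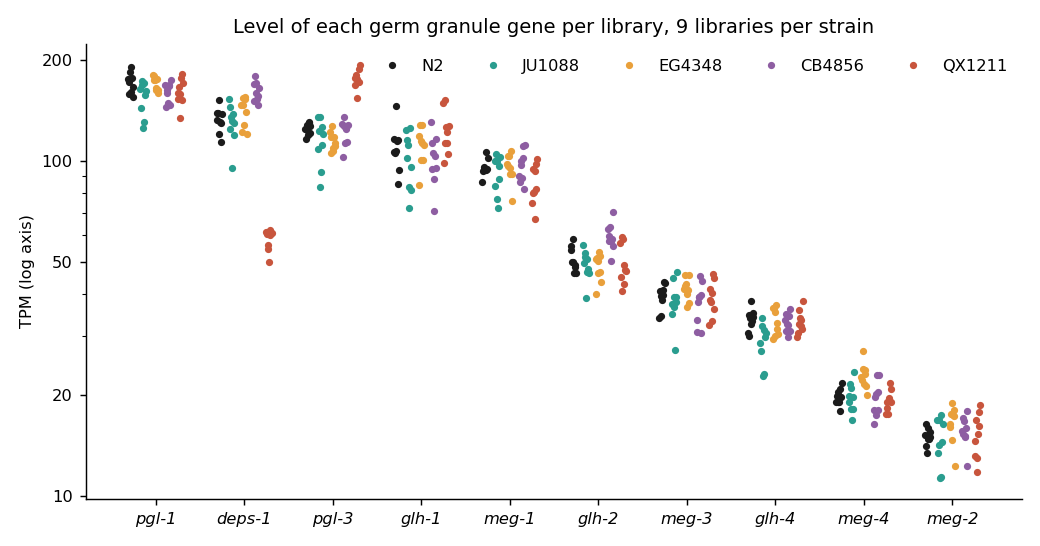
Level of each germ granule gene in TPM (log axis), with a point for each of the 45 libraries, coloured by strain (9 libraries each) and with all treatments together. Medians run from 165 TPM for pgl-1 to 15.6 TPM for meg-2, and QX1211 stands below the other strains at deps-1 and above them at pgl-3.

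The control libraries ask how the strains differ before any RNAi. Of the 10 genes, 4 differed among the 5 strains: deps-1, pgl-3, meg-4 and meg-1. The background was that 35.1% of the 16490 genes tested were called (edgeR's quasi-likelihood test of 4 strain coefficients, Benjamini-Hochberg adjusted p under 0.1). The large change was in deps-1, which was 2.42-fold to 2.84-fold lower in QX1211 than in each of the other strains. In the same strain pgl-3 was 1.33-fold to 1.39-fold higher. The 3 helicase genes, pgl-1, meg-2 and meg-3 did not pass the test. Whole animals do not tell fewer germ cells from less RNA per germ cell, and the part of either in these differences was not tested.

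The 3 control libraries of QX1211 held 879, 795 and 892 normalized counts of deps-1. Those of JU1088 held 2206, 1959 and 2034, those of N2 1986, 2272 and 1959, those of EG4348 2216, 2170 and 2234, and those of CB4856 2545, 2424 and 2286. Every QX1211 library was below every library of the other strains, while the other strains overlapped, apart from CB4856, whose libraries were all above those of N2, EG4348 and JU1088. The log2 difference of QX1211 was -1.27 (SE 0.08) from JU1088, -1.28 (0.08) from N2, -1.39 (0.08) from EG4348 and -1.50 (0.08) from CB4856, with adjusted p between 1.908e-09 and 1.417e-08. The neighbours above it in the order of means (JU1088, N2, EG4348, CB4856) did not differ by the test. The level stayed low under treatment: over all 9 QX1211 libraries deps-1 lay between 691 and 904, and over the 36 others between 1349 and 2648. Strain accounted for 94.3% of the variance of log2 values of deps-1 over the 45 libraries. Of its annotated transcripts, deps-1 a.1 and a.2 carried the reads in each strain and b.1 was listed at 0. The QX1211 versions of a.1 and a.2 that the reads were matched to had the same length as those of N2 (2040 and 2052 bases). Equal length does not show that reads of QX1211 match as well as those of N2. The authors name QX1211 as the strain most diverged from N2 and warn that low RNA can come from poor read matching. DNA coverage of deps-1 was not examined here, so the part of read matching in its low level was not tested. Mean levels of a.1 were 34.4 TPM in QX1211 and 71.4 to 96.9 TPM in the other strains, and those of a.2 were 24.1 TPM in QX1211 and 35.6 to 76.6 TPM in the others. The split between a.1 and a.2 was unstable, with 0% to 91.1% of the reads given to a.1 in QX1211 libraries and 10.7% to 79.9% in CB4856. These means are therefore not separate results.

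The scaffold gene pgl-3 went the other way in the same worms. QX1211 controls held 2963, 3144 and 3290 normalized counts. Those of N2 held 2186, 2350 and 2402, those of JU1088 2387, 2393 and 2279, those of EG4348 2257, 2302 and 2106, and those of CB4856 2364, 2353 and 2235. The QX1211 libraries were all above the rest, and the other 4 strains overlapped. The log2 difference of QX1211 was 0.41 (SE 0.07) from JU1088, 0.43 (0.07) from N2, 0.43 (0.07) from CB4856 and 0.47 (0.07) from EG4348, with adjusted p from 0.0001022 to 0.0005443. Its close relative pgl-1 did not pass the strain test (adjusted p = 0.268), with strain means of 3236 ± 240 (SD, n = 3) in QX1211 to 3567 ± 162 in N2.

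**Figure D2:**
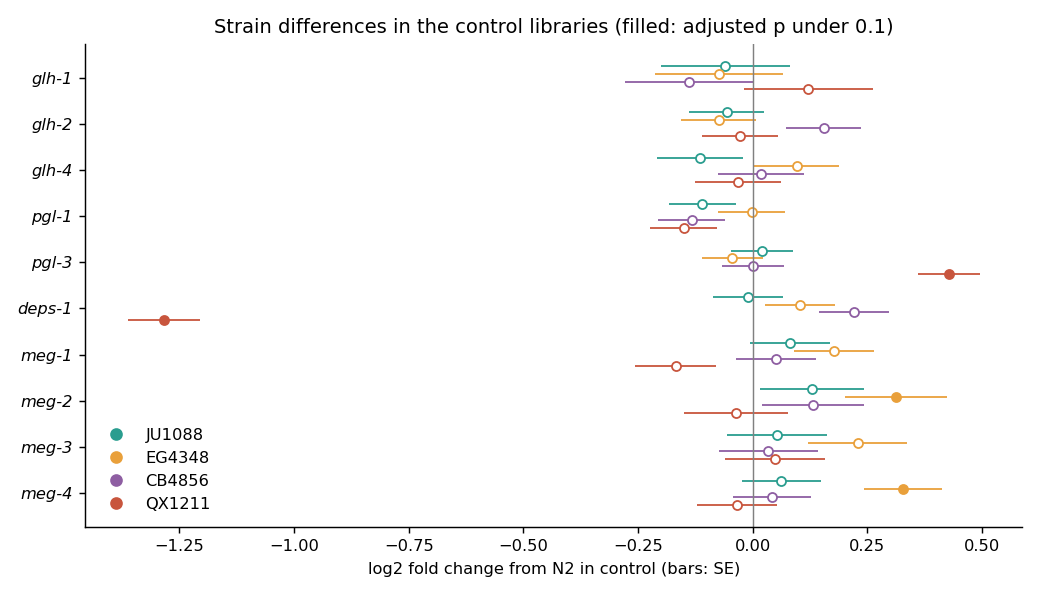
Log2 fold change of each gene from N2 in the control libraries (points, bars are SE, 3 libraries per strain), filled where the adjusted p was under 0.1. The QX1211 point of deps-1 lies at -1.28 and that of pgl-3 at 0.43, and the filled points of EG4348 are meg-2 (0.31) and meg-4 (0.33).

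The MEG genes varied less and mainly between EG4348 and QX1211. EG4348 had the highest control mean of all 4 and QX1211 the lowest of meg-1, meg-2 and meg-4. The EG4348 controls held 553, 573 and 548 normalized counts of meg-4, and the 12 control libraries of the other strains held 408 to 504, so that EG4348 did not overlap with them. The log2 difference of meg-4 was 0.33 (SE 0.09) between EG4348 and N2 (adjusted p = 0.0236), -0.29 (0.08) between CB4856 and EG4348 (0.0453) and -0.36 (0.09) between QX1211 and EG4348 (0.00666). With meg-3 and meg-4 summed the strain test no longer passed (adjusted p = 0.168), and the difference of EG4348 from N2 was 0.26 (0.09) with adjusted p = 0.0993. For meg-1, the log2 difference of QX1211 was -0.34 (0.09) from EG4348 (0.0103) and -0.25 (0.09) from JU1088 (0.0722). For meg-2, EG4348 was 0.31 (0.11) above N2 (0.0993) and QX1211 was -0.35 (0.11) from EG4348 (0.0368). Within QX1211 the libraries were far apart, with 1320, 1452 and 1726 counts of meg-1 and 320, 320 and 429 of meg-2, replicate 3 being the high library each time.

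The helicases did not pass the strain test. The control mean of glh-1 lay between 3564 ± 559 (SD, n = 3) in CB4856 and 4289 ± 698 in QX1211 (adjusted p = 0.570 for strain), and N2 libraries alone covered 3282 to 4716. DEPS-1 is known to be needed for the accumulation of glh-1 mRNA. The QX1211 controls, low in deps-1, held 4606, 4773 and 3490 counts of glh-1, which overlapped with the N2 controls. A link between the levels of deps-1 and glh-1 was not tested, and the glh-1 counts depend on the split of reads shared with glh-2. For glh-4 the ratio of the highest to the lowest strain mean was 1.14 (adjusted p = 0.443). For glh-2 it was 1.18 (adjusted p = 0.178), and CB4856 exceeded EG4348 by 0.23 (SE 0.08) on the log2 scale with adjusted p = 0.0976. With glh-1 and glh-2 summed the adjusted p for strain was 0.791.

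Over the 10 pairs of strains, 16 of 100 tests of the 10 genes were called. QX1211 against EG4348 gave 5 of 10 (deps-1, pgl-3, meg-1, meg-2 and meg-4, background 29.5%) and QX1211 against JU1088 gave 3 (background 21%). QX1211 gave 2 against N2 (background 21.1%) and 2 against CB4856 (background 19.5%), deps-1 and pgl-3 in each. EG4348 against N2 gave 2 (background 13.4%) and CB4856 against EG4348 gave 2 (background 13.6%). The 4 other pairs gave 0: JU1088 against N2 (background 4.68%), CB4856 against N2 (9.85%), EG4348 against JU1088 (6.87%) and CB4856 against JU1088 (6.45%). At unadjusted p under 0.05 those 4 had 0, 1, 2 and 2 genes, and DESeq2 called 0, 1, 0 and 1. Apart from QX1211 against EG4348, the shares of the 10 genes called were within 10 percentage points of the background or below it. Without QX1211 control replicate 3 the 16 calls became 26. Calls of deps-1 and pgl-3 held without any of the 15 libraries, whereas the strain call of meg-1 (adjusted p = 0.0648) was lost without QX1211 control replicates 1 or 2 or EG4348 control replicates 2 or 3. Those of meg-2 between EG4348 and N2 and of glh-2 between CB4856 and EG4348 were lost in 10 of 15 such fits each.

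Germline and oocyte markers also differed between strains, with the most calls between QX1211 and EG4348. Between QX1211 and EG4348, 7 of 10 germline markers and 9 of 9 oocyte markers were lower in QX1211, beside 13.5% of all genes. Their medians were -0.29 and -0.40 on the log2 scale, beside 0.04 over all genes. Against N2, JU1088 and CB4856, 3 of 10 germline markers were lower in QX1211 each time (medians -0.08, -0.19 and -0.17). Of the oocyte markers 6, 7 and 7 of 9 were lower. The shares of all genes called lower in these pairs were 11.5%, 10.5% and 10.4%. The summed level of the 10 germline markers was 823 to 990 TPM in QX1211 controls and 1047 to 1097 TPM in EG4348 controls. When libraries were scaled to the summed germline markers, an alternative added after seeing the data, deps-1 was still lower in QX1211 than in each other strain (log2 -1.32 to -1.07) and pgl-3 still higher (0.58 to 0.76). Under that scaling the strain calls of meg-1 (adjusted p = 0.91) and meg-4 (adjusted p = 0.298) were lost. Markers of sperm were lower in EG4348 than in N2 in 5 of 8 cases, beside 9.06% of all genes. Their part in the differences of the 10 genes was not tested.

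The wider germ granule list held 19 genes of the P, Z and Mutator compartments and of bound RNA regulators. It gave 10 of 19 called for strain, beside 35.1% of all genes tested. The smallest adjusted p was that of znfx-1, a helicase of the Z granule (0.000471). Between QX1211 and EG4348, 11 of the 19 were lower and 1 higher in QX1211 (list median -0.26), beside 13.5% and 16% of all genes. Of the 9 genes that segregate the granules in the embryo, such as mex-5 and pie-1, 7 were called for strain (background 35.1%). In QX1211 7 of them were lower than in EG4348 (background 13.5%).

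**Figure D3:**
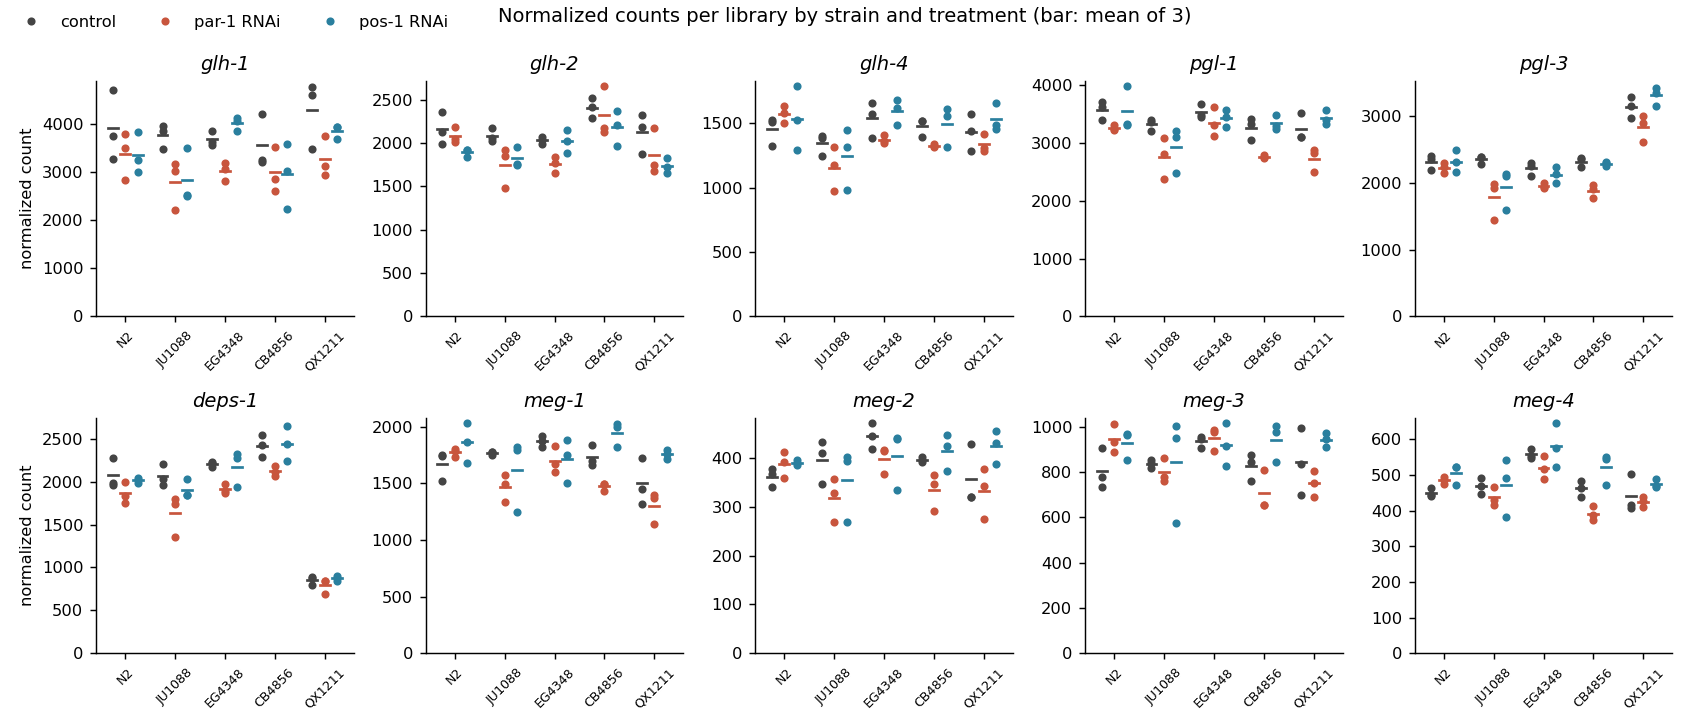
Normalized count of each gene in each library, by strain (horizontal axis) and treatment (colour), with a bar at the mean of the 3 replicates and axes that start at 0. The par-1 RNAi points of glh-1, pgl-1, pgl-3 and deps-1 lie low beside the controls in most strains, and the deps-1 values of QX1211 lie between 691 and 904 in all 3 treatments.

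Under par-1 RNAi the RNA of most of the 10 genes was slightly lower. On the mean of the 5 within-strain changes, 8 of 10 fell: glh-1, glh-2, glh-4, pgl-1, pgl-3, deps-1, meg-1 and meg-2. The background was 32.3% of 18581 genes called, and 14.3% called lower (edgeR, adjusted p under 0.1). The median of the 10 genes was -0.16 on the log2 scale beside 0.07 over all genes tested. The falls were small, from 1.08-fold for glh-4 to 1.25-fold for glh-1. The remaining genes, meg-3 and meg-4, did not pass the test.

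Among the helicases, glh-1 had the largest fall of the 10 on the mean over strains, -0.32 (SE 0.07, adjusted p = 0.00101), and was lower in all 5 strains (log2 -0.42 to -0.21). In EG4348 its controls held 3860, 3640 and 3564 normalized counts and the par-1 RNAi libraries 2813, 3204 and 3077, with no overlap. In N2 the controls held 3282, 4716 and 3755 and the par-1 RNAi libraries 3794, 3517 and 2844, so the groups overlapped. The paralog glh-2 fell by 0.16 on the log2 scale (SE 0.04, adjusted p = 0.00691) and glh-4 by 0.11 (SE 0.05, adjusted p = 0.0935). With glh-1 and glh-2 summed the change was -0.27 (SE 0.06, adjusted p = 0.000992). The call of glh-4 was weak: it was lost without any of 25 of the 45 libraries, and with DESeq2.

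The scaffold genes and deps-1 gave the smallest p-values. For pgl-3 the mean change was -0.22 (SE 0.04, adjusted p = 3.72e-05), for deps-1 it was -0.21 (0.04, 0.0001046), and for pgl-1 it was -0.20 (0.04, 0.0001231), and each was lower in 5 of 5 strains. In CB4856 the controls of pgl-3 held 2364, 2353 and 2235 counts and the treated libraries 1769, 1901 and 1961. In JU1088 the values were 2387, 2393 and 2279 against 1923, 1448 and 1984. The groups did not overlap in either strain, nor in EG4348 (2257, 2302 and 2106 against 1990, 1938 and 1921). In N2 pgl-3 held 2186, 2350 and 2402 counts in the controls and 2147, 2231 and 2290 in the treated libraries, which overlapped. For pgl-1 all treated libraries were below all controls in N2, JU1088, CB4856 and QX1211. The QX1211 libraries, already low in deps-1, held 879, 795 and 892 in the control and 840, 691 and 839 under par-1 RNAi.

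Of the MEG genes, the neighbours meg-1 and meg-2 fell by 0.15 each on the log2 scale (SE 0.05 and 0.06, adjusted p = 0.00879 and 0.0510). The values of meg-3 (-0.05, SE 0.06, adjusted p = 0.661) and meg-4 (-0.08, SE 0.04, adjusted p = 0.144) did not pass, nor did their sum (-0.06, adjusted p = 0.420). The difference between the MEG genes that passed and those that did not was not tested. The sign varied between strains: in N2 the log2 changes of meg-1, meg-2, meg-3 and meg-4 were 0.09, 0.10, 0.23 and 0.11, while in CB4856 they were -0.23, -0.25, -0.23 and -0.24. For meg-4 the N2 controls held 443, 462 and 440 counts, below the 487, 474 and 496 of the treated libraries. The CB4856 controls held 439, 465 and 484, above the 373, 387 and 413. Treated libraries lay all above the controls for 7.43% of all genes in N2, and all below them for 10% in CB4856. The interaction test, described with the other genes later, did not pass for any of the 4 without a replicate block.

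Within single strains no gene passed both thresholds (adjusted p under 0.1 and fold change above 1.5) under par-1 RNAi, in 0 of 50 tests, and DESeq2 also called 0. The background was 5.15% in QX1211, 4.4% in CB4856, 2.38% in EG4348, 8.5% in JU1088 and 1.16% in N2. At unadjusted p under 0.05 there were 19 of 50. Without the fold minimum 8 of 50 passed (background 7.14%): glh-1, pgl-1, pgl-3, deps-1 and meg-1 in JU1088, pgl-1 and pgl-3 in CB4856, and pgl-1 in QX1211. The largest of these was glh-1 in JU1088, at -0.42 (SE 0.16, adjusted p = 0.0912). The median of the 10 genes was -0.26 in JU1088, -0.24 in CB4856, -0.17 in QX1211 and -0.17 in EG4348, and 10, 10, 10 and 9 of 10 were lower. In N2 the median was 0.02 and 5 of 10 were lower. All 3 treated libraries lay below all 3 controls for 6 of 10 genes in JU1088 (13% of all genes), 5 in EG4348 (9.67%), 7 in CB4856 (10%), 1 in QX1211 (7.7%) and 1 in N2 (6.9%).

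**Figure D4:**
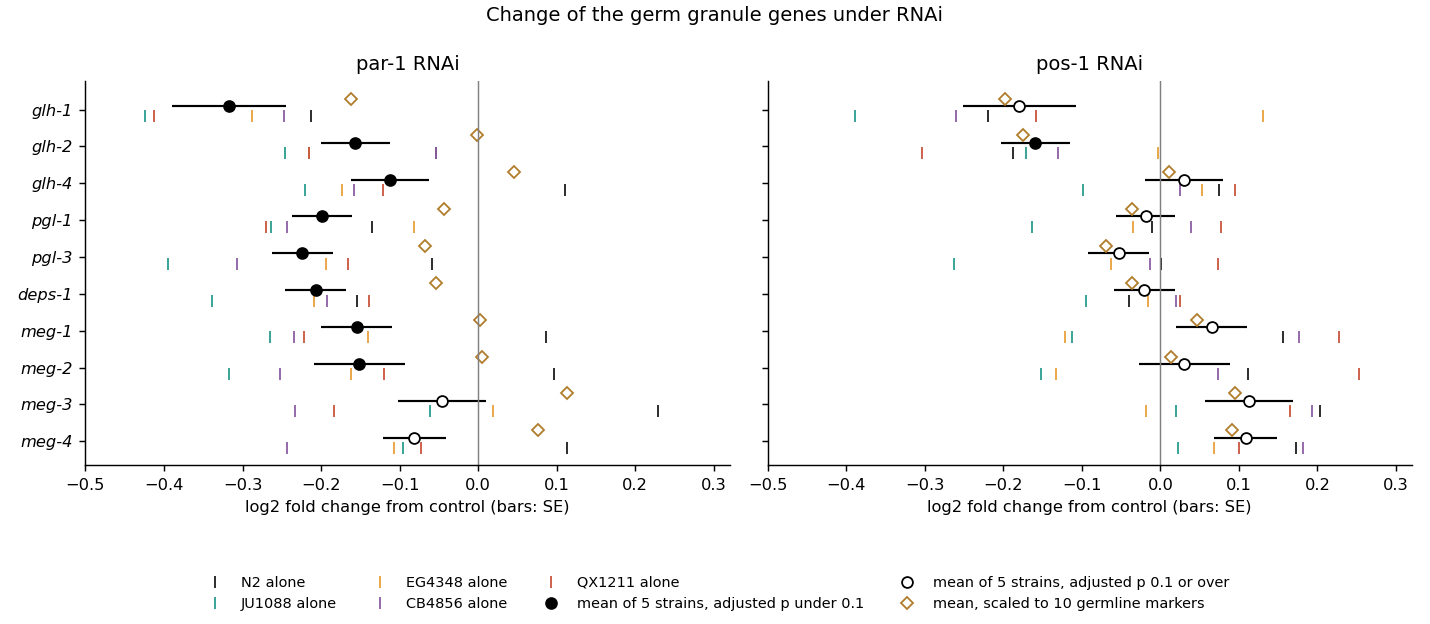
Log2 fold change of each gene under par-1 RNAi (left) and pos-1 RNAi (right), as the mean over 5 strains (circles with SE, filled at adjusted p under 0.1), in each strain alone (ticks), and as the mean with libraries scaled to 10 germline markers (diamonds). Under par-1 RNAi the circles lie between -0.32 and -0.05, and the diamonds between -0.16 and 0.11.

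Markers of other tissues moved with the par-1 RNAi result. On the same mean over strains, 14.3% of all genes were called lower and 18% higher. Of the germline markers 8 of 10 fell (list median -0.15) and of the oocyte markers 7 of 9 (-0.14), while 6 of 10 markers of soma rose and 1 fell (0.21). The summed germline markers ranged from 823 to 1097 TPM in the 15 controls and from 802 to 1010 TPM in the 15 par-1 RNAi libraries, and the summed soma markers from 7324 to 10803 TPM and from 8918 to 13301 TPM. The summed sperm markers ranged from 4.76 to 86.3 TPM in the controls and from 12.7 to 64.6 TPM under par-1 RNAi. Of the early embryo markers 3 rose and 1 fell of 9 tested. When libraries were scaled to the 10 germline markers, the median over all genes moved from 0.07 to 0.21 and 2 of 10 granule genes were called, meg-3 (0.11, adjusted p = 0.0223) and meg-4 (0.08, adjusted p = 0.0863), both higher. The 8 that had fallen no longer passed, with log2 changes of -0.16 (glh-1) to 0.05 (glh-4). The part of these markers in the changes of the 10 genes was not tested.

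Of the 19 genes of the wider germ granule list, 17 fell on the mean under par-1 RNAi and 0 rose (list median -0.18). Over all genes 14.3% were called lower and 18% higher. The smallest adjusted p was that of car-1, an RNA-binding protein of germ granules, at -0.22 (SE 0.03, adjusted p = 4.547e-07), which was lost under the scaling to germline markers. A single gene of that list was called within a strain, pid-2, a piRNA pathway gene, in CB4856. Its controls held 214 to 229 normalized counts and the treated libraries 129 to 143 (log2 -0.70, adjusted p = 0.0406), and the call was lost without CB4856 par-1 RNAi replicate 1 or control replicate 3. Of the 9 segregation genes 3 fell and 0 rose, beside the same shares of all genes.

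The list of genes that remove PGL proteins from somatic cells of the embryo held 6. On the mean over strains 3 of them rose and 0 fell, beside 18% of all genes called higher. The genes sepa-1 and epg-2, which act in the autophagy of PGL-1 and PGL-3, rose by 0.76 (SE 0.12) and 1.07 (0.14). The third, lgg-1, the Atg8 protein of the autophagosome, rose by 0.32 (0.10). In EG4348 epg-2 rose from 85.8 ± 28.4 to 299 ± 118 counts (SD, n = 3, log2 1.80, adjusted p = 0.00245) and sepa-1 from 40.8 ± 15.4 to 130 ± 31.5 (1.67, 0.000934). In JU1088 epg-2 rose from 356 ± 13.9 to 957 ± 280 (1.43, 0.00284), sepa-1 by 1.02 (0.0118) and lgg-1 by 0.89 (0.00870). In CB4856 epg-2 rose by 1.42 (0.00531) and sepa-1 by 0.87 (0.0522). The lgg-1 call in JU1088 was lost without par-1 RNAi replicate 2, and the sepa-1 call in CB4856 without any of 4 libraries of that strain or without the 3 libraries of shared fragment length. In N2 epg-2 held 477 ± 143 counts in the controls and 557 ± 126 under par-1 RNAi.

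Under pos-1 RNAi a single gene of the 10 changed on the mean over strains. The helicase gene glh-2 fell by 0.16 on the log2 scale (SE 0.04, adjusted p = 0.0554), beside a background of 2.55% called. At unadjusted p under 0.05 there were 3, glh-1 (-0.18), glh-2 and meg-4 (0.11), and DESeq2 called 1. In N2 the controls of glh-2 held 2132, 2353 and 1988 counts and the pos-1 RNAi libraries 1921, 1925 and 1837. In QX1211 they held 2188, 2324 and 1879 against 1653, 1729 and 1823. All 3 treated libraries lay below all 3 controls in N2 (as for 3.74% of all genes), JU1088 (9.11%) and QX1211 (4.68%), and the groups overlapped in EG4348 and CB4856. The call was lost without N2 control replicate 2 (adjusted p = 0.113), and the summed glh-1 and glh-2 did not pass (-0.17, adjusted p = 0.181). The median of the 10 genes was 0.01 beside 0.02 over all genes. Other genes lay wholly above the controls: meg-2 and meg-4 in N2 (3.13% of all genes) and glh-1 in EG4348 (6.47%). Wholly below them lay also pgl-3 in JU1088. The log2 change of meg-4 was above 0 in all 5 strains (0.02 to 0.18).

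Within strains 0 of 50 tests passed under pos-1 RNAi (edgeR), 5 of 50 at unadjusted p under 0.05, and DESeq2 called 0. The background was 0.0807% in QX1211, 0.156% in CB4856, 0.0646% in EG4348, 8.24% in JU1088 and 0.215% in N2. Without the fold minimum 1 of 50 passed (background 2.24%), pgl-3 in JU1088 at -0.26 (SE 0.09, adjusted p = 0.0622). Its controls held 2387, 2393 and 2279 counts and the treated libraries 2124, 1592 and 2098, the low library being replicate 2. In the strains whose pos-1 RNA fell, the median of the 10 genes was 0.04 in N2, -0.13 in JU1088 and -0.02 in EG4348. The genes sepa-1, epg-2 and lgg-1 rose in JU1088 under pos-1 RNAi too (log2 1.41, 1.66 and 1.12), and without the 3 libraries of shared fragment length the values were 1.08, 1.21 and 0.85. Both RNAi comparisons share the control libraries.

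The interaction test asks whether the response to RNAi depended on the strain. None of the 10 genes passed (edgeR, 8 coefficients), beside a background of 1.29%. At unadjusted p under 0.05 there was 1 gene, meg-1 (adjusted p = 0.264), and DESeq2 called 0. With the replicate number as a block within strains, an alternative added after seeing the data, meg-1 passed (adjusted p = 0.0942, range over all 9 alternatives 0.0942 to 0.437). The share of the variance of log2 values over the 45 libraries that lay between strains was 94.3% for deps-1 and 70.4% for pgl-3, and 15.5% to 41.9% for the other 8 genes. Treatment held 2.76% for deps-1 to 30.1% for pgl-1. The spread among replicates held 2.57% for deps-1, 11.2% for pgl-3 and 27.1% (meg-4) to 51.2% (meg-3) for the rest.

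Replicates of a group were then used to ask which of the 10 genes deviated together from their group mean. These are correlations over 45 libraries that share depth and tissue make-up, given as a description. The glh-1 and glh-2 values moved together (Pearson's r = 0.84), although reads shared by both are split between them. The scaffold genes pgl-1 and pgl-3 also did (r = 0.79), and meg-1 was most like meg-3 (0.80), pgl-1 (0.79), meg-4 (0.77) and meg-2 (0.74). The helicases glh-1 and glh-2 stood apart from the MEG genes, with r between -0.32 and 0.01. The third helicase gene, glh-4, was nearer to pgl-3 (0.68) and pgl-1 (0.64) than to glh-1 (0.52). The gene deps-1 was most like meg-2 (0.53).

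**Figure D5:**
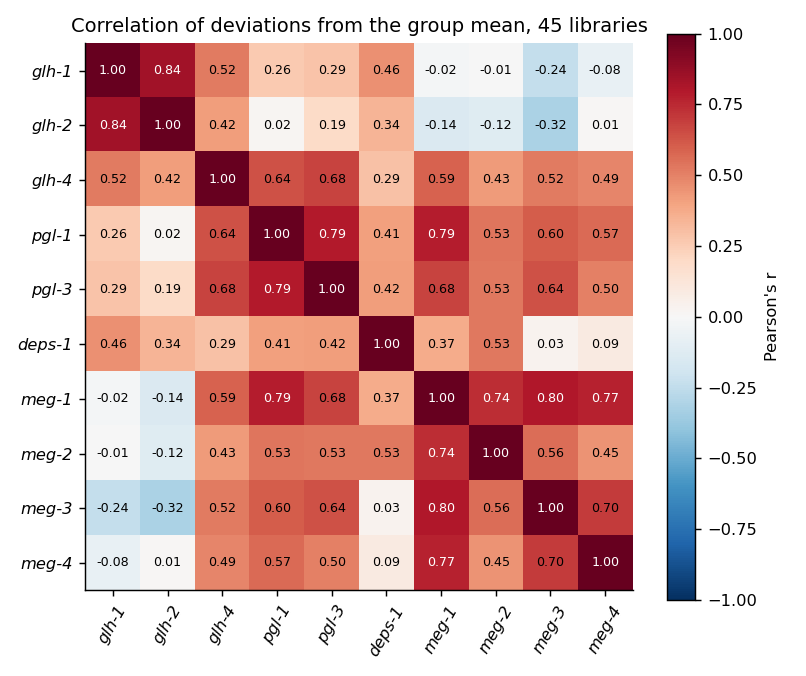
Pearson correlation between the genes of their deviations from the group mean, on log2(normalized count + 1) over 45 libraries. The pair glh-1 and glh-2 (0.84) stands apart from a block of pgl-1, pgl-3 and the MEG genes, in which r runs from 0.45 to 0.80.

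Over the 15 group means, the mean profile of the 10 genes was highest in EG4348 controls and lowest in JU1088 under par-1 RNAi. Single genes followed it to different degrees, with r of 0.93 for pgl-1 and 0.92 for meg-2 down to 0.35 for deps-1, 0.31 for glh-2 and 0.28 for pgl-3. The 5 genes outside the 10 most like that profile, among 8181 with a mean of at least 50 normalized counts, were cct-6 (a chaperonin subunit, r = 0.94), Y39E4B.5 (0.94), ife-3 (a cap-binding protein, 0.94), chs-1 (the chitin synthase of the eggshell, 0.94) and fars-3 (a tRNA synthetase subunit, 0.94).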

How the data were processed

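RNA-seq (stranded, single-end) of 45 libraries was used. Per the methods and the submitters' processing notes, the authors used Trimmomatic for trimming and Salmon 1.4.0 for quantification against a transcriptome of each strain (annotation WS276 with that strain's variants inserted). The deposited files of each library give estimated counts, TPM (abundance per effective length, scaled to a fixed total) and lengths per transcript. The authors also deposited DESeq2-normalized counts per gene, a signal in which counts are divided by size factors and corrected for transcript length; these are the normalized counts in the text. Genes and positions came from an Ensembl annotation of WBcel235, another file than the authors used. By sequence name 6635 transcripts were matched, and 19 were not.

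Estimated counts were summed per gene, rounded and tested in R 4.3.3 with edgeR 4.0.16 (TMM factors, average transcript length offsets, quasi-likelihood F test, Benjamini-Hochberg over all genes with at least 10 summed reads). Strain was tested in the 15 controls, and RNAi and the interaction in 1 model of 45 libraries with 15 group means. SE was derived from the F statistic. The steps were tested on simulated counts with equal transcript lengths and a single dispersion for all genes. That test could not check the length offset or the spread of real replicates. Alternatives were DESeq2 1.42.0, RLE factors, no length offset, other filters, a replicate block, models of each strain, no fold minimum, the top transcript for TPM, each library left out (the negative binomial trend of the full model was kept) and the 3 libraries of shared fragment length left out. Scaling to germline markers, summing paralogs and a replicate block within strains were added after seeing the data. All 10 genes are named; of other lists, the gene with the smallest p and those called within a strain; and the 5 most alike profiles. The 10 genes and all lists were chosen with earlier results of these data known. The replicates are separate plates of worms, processed at the same time, and the libraries of each group differed by more than sampling noise (lowest dispersion index of 45 pairs 1.62).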

Additional observations from a re-analysis of the deposited data

Results flagged for a closer look

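By the interaction test of edgeR, 0 of 19 wider germ granule genes, 1 of 9 segregation genes and 2 of 6 removal genes were called. The background was 1.29% of all genes. The 3 genes were pos-1, itself a target of the RNAi (adjusted p = 1.987e-20), sepa-1 (0.015) and epg-2 (0.0443). Leaving out replicate 2 of pos-1 RNAi in JU1088 ended the call of epg-2, and with all 3 libraries of shared fragment length left out its adjusted p was 0.186 and that of sepa-1 0.0895. For meg-4 under par-1 RNAi all 3 treated libraries lay above the controls in N2 (log2 0.11), as for 7.43% of all genes. In CB4856 they lay below them (log2 -0.24), as for 10% of all genes. This gene was found by looking for opposite sides among all 10 genes under both treatments. The difference between these strains alone was not tested, and the interaction over all strains gave adjusted p = 0.577.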

How the results depend on the processing

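Calls of deps-1 and pgl-3 between QX1211 and each other strain held under all 8 alternatives and in all 15 fits with a library left out. The count of genes called for strain in the controls (4) was 7 without the length offset, 2 with libraries scaled to germline markers, and 3 to 6 with a library left out. The 16 calls over pairs of strains became 31 without the length offset and 12 to 26 with a library left out, 12 without EG4348 control replicate 2 and 26 without QX1211 control replicate 3. Within strains the 0 calls under par-1 RNAi and pos-1 RNAi became 8 and 1 with no fold minimum, and stayed at 0 to 0 with a library left out and under the other alternatives. The 8 calls of the mean par-1 RNAi change became 2 under the germline scaling, where glh-4 (0.0452), meg-1 (0.0025) and meg-2 (0.0044) changed sign and meg-3 and meg-4 were called higher. They became 6 to 9 with a library left out, 6 without replicate 3 of the QX1211 controls, replicate 3 of par-1 RNAi in CB4856 or replicate 2 of par-1 RNAi in JU1088, each time with glh-4 and meg-2 lost. The single call of the mean pos-1 RNAi change became 2 without the 3 libraries of shared fragment length, 0 under the germline scaling, and 0 (without N2 control replicate 2) to 3 (without JU1088 pos-1 RNAi replicate 2) with a library left out. The interaction stayed at 0 except for 1 (meg-1) with the replicate number as a block within strains. The cause of these changes was not tested. With a replicate block across strains the counts were 4, 17, 0, 0, 8, 1 and 0 in the same order, and with the block within strains, added after seeing the data, the 5 counts under RNAi were 0, 0, 8, 1 and 1. The replicate numbers were not taken to pair the libraries. Same-numbered libraries of a strain correlated by -0.31 to 0.54 in their deviations from the group means, and other-numbered ones by -0.65 to 0.56. Of the same-numbered pairs 21 of 45 exceeded 0.1. All 3 did so between control and pos-1 RNAi in CB4856 (0.203 to 0.422, other-numbered -0.393 to 0.074). They also did between par-1 and pos-1 RNAi in QX1211 (0.122 to 0.237, other-numbered -0.335 to 0.229). Between control and pos-1 RNAi in JU1088 the same-numbered median was the lower (-0.12 against 0.07). These values do not decide whether the numbers mark pairs. Within strains the 1.5-fold minimum, which the mean over strains did not use, set the count of 0 for the genes that passed on adjusted p.

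Over all genes, the calls under pos-1 RNAi within strains fell from 1627 to 325 without the 3 libraries and to 721 in models of each strain alone, those of the interaction ranged from 111 (without the 3 libraries) to 842 (DESeq2) beside 240 and were 435 with the block within strains, and those of par-1 RNAi within strains rose from 4011 to 6313 under the germline scaling.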
